A study of Mus musculus with 8 samples.

Results

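The 10 mitochondrially encoded messenger RNAs measured here were mt-Nd1, mt-Nd2, mt-Nd4, mt-Nd5, mt-Nd6, mt-Cytb, mt-Co1, mt-Co2, mt-Co3 and mt-Atp6. They were chosen by name, through the Ensembl identifier of each row, and are 10 of 37980 gene rows and 10 of the 37 rows of the mitochondrial genome. Transcriptomes came from multipotent progenitors (MPPs) of C57BL/6 mouse bone marrow, sorted by surface markers (lineage-, CD48-, c-kit+, Sca1+, CD135+, CD150-) in aliquots of 1000 cells. NA mice gave 4 libraries, NA1 to NA4, and WT mice gave 4, WT1 to WT4. NA mice carried NUP98-HOXA10hd, a fusion of nucleoporin and homeodomain sequence, inserted at Rosa26 behind a stop cassette that Vav-Cre removes in blood cells. WT mice were wild type, and whether they carried Vav-Cre, how old the mice were, and which mouse gave which library was not given in the sources used here. The p-values below therefore measure the spread between libraries, which may be technical.

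The mitochondrial genome of the mouse encodes 13 proteins, 2 ribosomal RNAs and 22 transfer RNAs. All its proteins are subunits of the respiratory chain or of ATP synthase: the mt-Nd genes encode parts of complex I, mt-Cytb of complex III, the mt-Co genes of complex IV and mt-Atp6 of complex V. Long transcripts are read from both strands, and excision of the transfer RNAs that lie between most genes releases the messenger RNAs. The released ends receive a poly(A) tail, which in some messages also completes the stop codon. Haematopoietic stem cells are known to rely largely on glycolysis, and respiration increases as they become progenitors.

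The ends of 3 members are shown because their reading frame is closed only by the tail. The last 30 bases (GENCODE M21 annotation, build mm10, strand +) are given 5′ to 3′, and the capital marks the T that is the encoded part of the stop codon. The other 7 members encode a complete stop.
mt-Nd4 (chrM:11515-11544): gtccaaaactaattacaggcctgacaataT
mt-Cytb (chrM:15259-15288): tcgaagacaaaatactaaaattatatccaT
mt-Co3 (chrM:9361-9390): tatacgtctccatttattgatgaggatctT

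The ends of mt-Nd5 and mt-Nd6 are shown because these genes face each other on opposite strands and share 14 bases at chrM:13552-13565. In the last 40 bases of each, on its own strand, capitals mark the shared bases. mt-Nd6 is the only member transcribed from the strand known as the light strand as template. Its gene is on strand - in the annotation, and its message is poor in C, at 5.97%, and rich in T, at 43.7%.
mt-Nd5, strand +: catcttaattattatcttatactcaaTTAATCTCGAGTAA
mt-Nd6, strand -: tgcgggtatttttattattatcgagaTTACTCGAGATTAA

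The library kit does not mark strand, so reads of mt-Nd6 cannot be told apart from reads of RNA copied from the other strand over the same bases. A similar limit holds for mt-Atp6, whose first 43 bases (chrM:7927-7969, strand +) are also the last 43 of mt-Atp8. Its start is shown with the shared bases in capitals.
mt-Atp6: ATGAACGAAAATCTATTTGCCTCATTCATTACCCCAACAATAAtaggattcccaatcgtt

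Values are normalised read counts: RSEM estimates that had been divided by a size factor for each library before deposit. Estimated depth was between 3876906 and 4916987 reads per library. All 10 members were far above the minimum of 10 normalised counts in 4 libraries, so all 10 entered the test. Hoxa10, whose homeodomain sequence is part of the fusion, ranged from 298 to 371 in NA and from 130 to 149 in WT libraries. Xist was at 869 or more in every WT library and at 2.80 or less in every NA library, and Ddx3y, a Y-linked gene, at 281 or more in NA and 0.888 or less in WT, so sex and genotype cannot be told apart in any result below. The sorting markers Kit (1362 and 1197 in NA and WT), Ly6a (1277 and 1548) and Flt3 (1442 and 1374) were present in both groups, with overlap for Kit and Flt3 and none for Ly6a. Cd48, against which the cells were sorted, was low, from 12.2 to 22.4 in NA and from 34.2 to 83.8 in WT libraries. Of the erythroid genes, Alas2 was at 0 in all libraries, and Hbb-bt, a beta globin, ranged from 28.3 to 56.4 in NA and from 131 to 185 in WT libraries. The sum of 10 granulocyte genes ranged from 1415 to 1725 in NA and from 1770 to 2645 in WT, with Elane and Ly6g at 0. Most of that sum was Prtn3, from 1371 to 1677 in NA and from 1711 to 2291 in WT. S100a9 was at 158 in WT3, from 7.93 to 47.9 in the other WT libraries and from 0 to 18.5 in NA. S100a8 (64.9), Ngp (53.5) and Camp (39.8) were also highest in WT3. The sum of 7 monocyte and macrophage genes ranged from 1716 to 1798 in NA and from 1816 to 2126 in WT. Most of it was Lyz2, whose groups overlapped. Of 8 T and NK cell genes 6 were at 0. The part of these other cell types in the results was not tested. By the SD of the log2 residual, NA4 (0.170) and WT4 (0.115) were closer to a weighted sum of the other libraries of their group than the remaining libraries were (0.200 to 0.297). By a robust SD WT1 (0.145) was below NA4 (0.151). Whether NA4 and WT4 are independent samples is not stated in the sources used here. If they are not, the SDs with n = 4 and the p-values rest on fewer independent libraries. Results without NA4 and WT4 are given where they differ.

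The 10 messenger RNAs together held a large share of each library. It was 9.27%, 9.26%, 6.77% and 9.06% in NA1 to NA4 and 7.70%, 7.98%, 7.09% and 7.79% in WT1 to WT4. NA1, NA2 and NA4 lay above all WT libraries, and NA3 lay below all of them. The means were 8.59% ± 1.22 in NA and 7.64% ± 0.381 in WT (SD, n = 4), a difference of 0.949 percentage points that is smaller than the SD of the NA group. Without NA3 the difference was 1.56 percentage points. In bulk RNA, more mitochondria per cell, more RNA per mitochondrion and less nuclear-encoded RNA cannot be told apart.

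**Figure D1:**
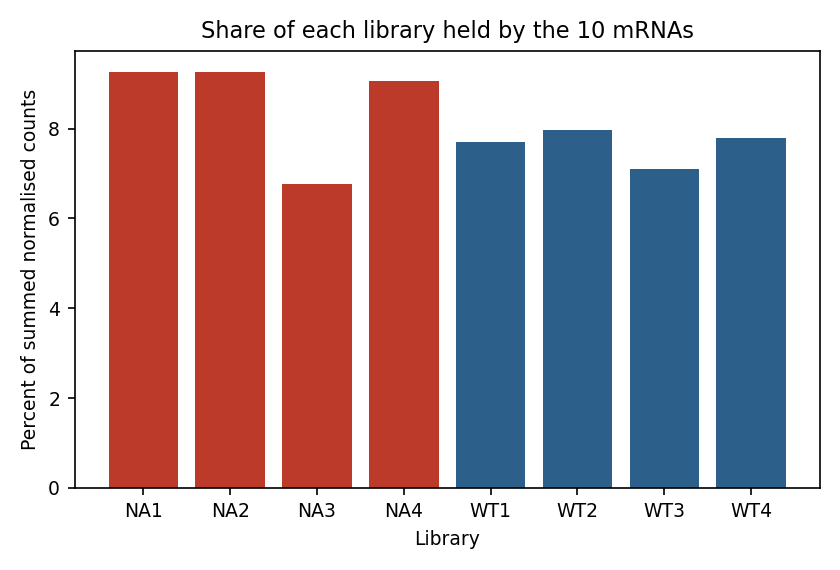
Percent of the summed normalised counts held by the 10 mitochondrial messenger RNAs (vertical axis, from 0) in each library (horizontal axis; red bars NA, blue bars WT). NA1, NA2 and NA4 stand at 9.06% or more, all WT libraries between 7.09% and 7.98%, and NA3 at 6.77%.

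Of the 10 members, 3 were higher in NA MPPs and none was lower at an adjusted p below 0.05 (limma, Benjamini-Hochberg over 11451 genes). Among all genes tested, 17.9% were called, 10.1% higher and 7.87% lower. The called members were mt-Nd5, mt-Cytb and mt-Co1. With mt-Nd1 added, 4 members had an unadjusted p below 0.05 (limma), all of them higher and none lower. At that threshold 16.9% of all genes tested were higher and 15.6% lower. The log2 fold change was positive for 8 members, with a median of 0.26 over the 10, beside -0.011 over all genes tested. That member median was 0.050 with a GC trend removed in each library, 0.37 with a length trend removed and 0.14 with both removed. Groups did not overlap for 1 member, mt-Nd5, against 22.0% of all genes tested.

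**Figure D2:**
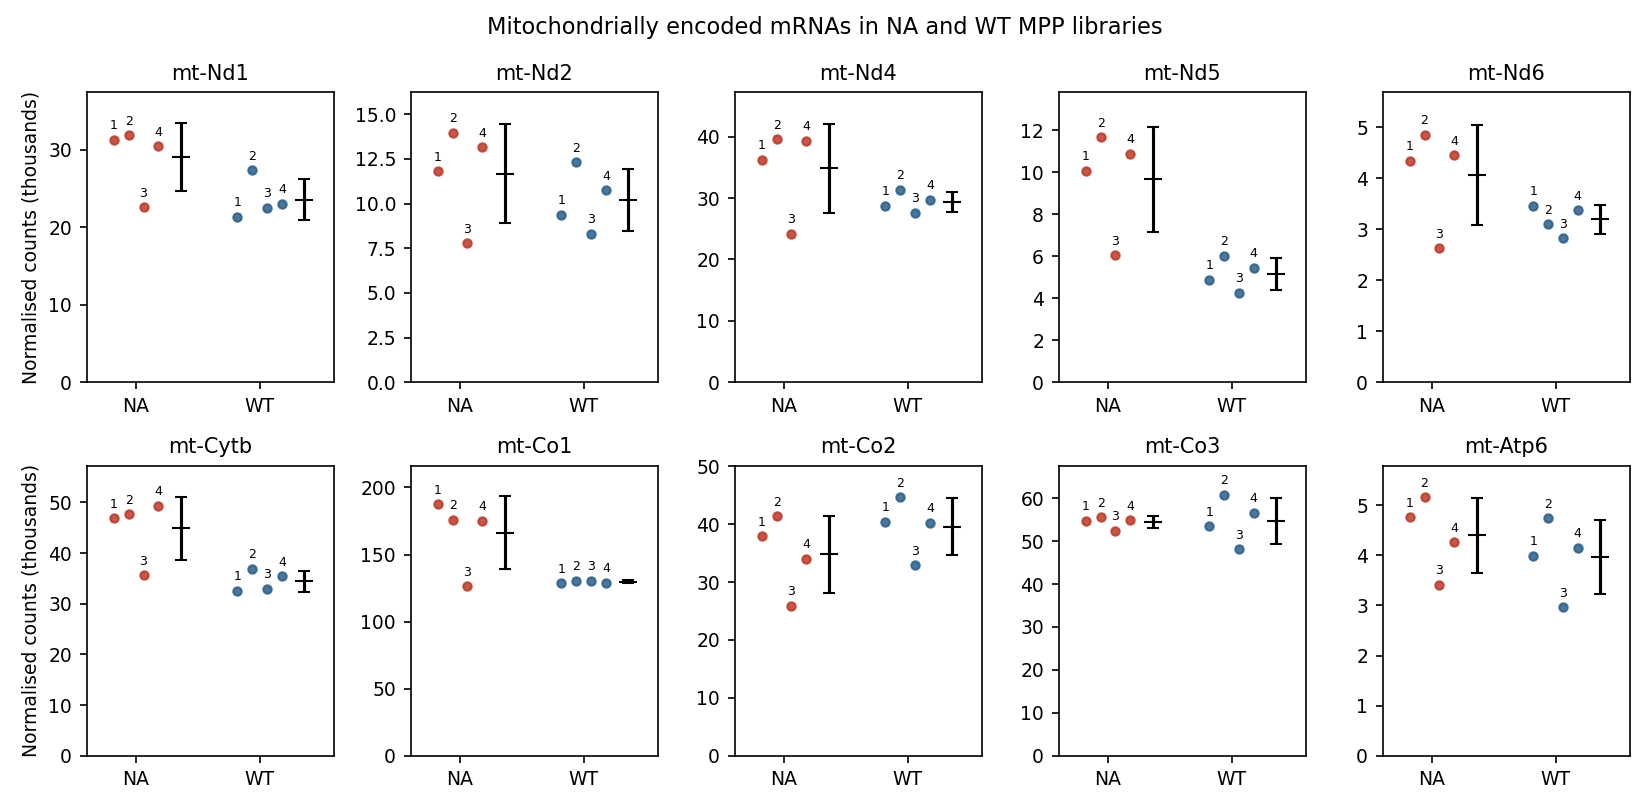
Normalised counts divided by 1000 (vertical axes, from 0, a scale per panel) of each of the 10 messenger RNAs in the NA (red) and WT (blue) libraries, numbered 1 to 4, with the mean and SD of each group in black. NA3 is the lowest NA library in every panel, and only in the mt-Nd5 panel are the 4 NA points all above the 4 WT points.

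Among the complex I members, mt-Nd5 rose most. It encodes a proton-pumping subunit at the far end of the membrane arm. NA1 to NA4 held 10082, 11677, 6053 and 10875 normalised counts of it, and WT1 to WT4 held 4884, 6018, 4267 and 5450. NA1, NA2 and NA4 were well above all WT libraries, whereas NA3 was above WT2 by only a narrow margin. The log2 fold change was 0.88 ± 0.17 (SE; adjusted p = 0.00287, limma), a 1.83-fold change with a 95% interval of 1.43 to 2.35. It remained called in each of 27 alternative fits, with log2 fold changes from 0.68 to 1.12 and adjusted p-values up to 0.0382. Without NA4 and WT4 it was 0.84 (adjusted p = 0.0253).

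The other complex I members did not pass the test. mt-Nd1, which encodes the subunit next to the ubiquinone site, was at 31328, 31880, 22561 and 30472 in NA1 to NA4 and at 21345, 27339, 22511 and 23060 in WT1 to WT4. The log2 fold change was 0.30 ± 0.11 (SE; adjusted p = 0.0778, limma), and mt-Nd1 was called without NA3 (0.41, adjusted p = 0.0053) or without WT2 (0.37, adjusted p = 0.0429). Its groups overlapped only through NA3. mt-Nd4, a further proton-pumping subunit, ranged from 24233 to 39631 in NA and from 27657 to 31359 in WT (log2 fold change 0.22, adjusted p = 0.248, limma). mt-Nd2, also a subunit of the membrane arm, ranged from 7766 to 13969 in NA and from 8316 to 12316 in WT (0.18, adjusted p = 0.471). mt-Nd6, on the opposite strand, was at 4342, 4851, 2632 and 4451 in NA1 to NA4 and at 3464, 3101, 2825 and 3376 in WT1 to WT4. NA3 was the lowest of all 8 libraries for mt-Nd6 and the other 3 NA libraries were the highest, and the log2 fold change was 0.32 ± 0.15 (SE; adjusted p = 0.160, limma).

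mt-Cytb, the only mitochondrially encoded subunit of complex III, rose in NA MPPs. Its values were 46936, 47655, 35584 and 49335 in NA1 to NA4 and 32571, 36944, 32933 and 35438 in WT1 to WT4. NA3 lay between WT4 and WT2, so the groups overlapped. The log2 fold change was 0.37 ± 0.10 (SE; adjusted p = 0.0185, limma), with a 95% interval of 0.16 to 0.58. The call was lost in 9 of the 27 alternatives. These included leaving out NA1, NA2, NA4 or WT3 (adjusted p from 0.0505 to 0.0634, limma) and the fit without both NA4 and WT4 (0.34, adjusted p = 0.0902).

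Of the 3 subunits of the complex IV core, which reduces oxygen, only mt-Co1 was called. mt-Co1, the catalytic subunit, held the most normalised counts of any row in all 8 libraries. It was at 187402, 175839, 126239 and 175136 in NA1 to NA4 and at 128389, 130469, 130564 and 129098 in WT1 to WT4. The WT libraries were nearly level, with a coefficient of variation of 0.821%, whereas NA3 was below all of them and the other 3 NA libraries were far above. The log2 fold change of mt-Co1 was 0.34 ± 0.11 (SE; adjusted p = 0.0409, limma), and the call was lost in 16 of the 27 alternatives. These included leaving out any library other than NA3 (adjusted p from 0.0597 to 0.125, limma) and the fit without both NA4 and WT4 (0.31, adjusted p = 0.152).

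mt-Co2, which takes up electrons from cytochrome c, was at 37916, 41394, 25882 and 34001 in NA1 to NA4 and at 40460, 44646, 32900 and 40253 in WT1 to WT4. The groups overlapped, and the log2 fold change was -0.20 ± 0.13 (SE; adjusted p = 0.305, limma). mt-Co3, the remaining core subunit, ranged from 52464 to 55639 in NA and from 48176 to 60853 in WT, with a log2 fold change of -0.0050 and a 95% interval of -0.17 to 0.16 (adjusted p = 0.973). mt-Atp6, the proton channel subunit of ATP synthase, ranged from 3415 to 5160 in NA and from 2961 to 4738 in WT (log2 fold change 0.16, adjusted p = 0.471, limma).

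**Figure D3:**
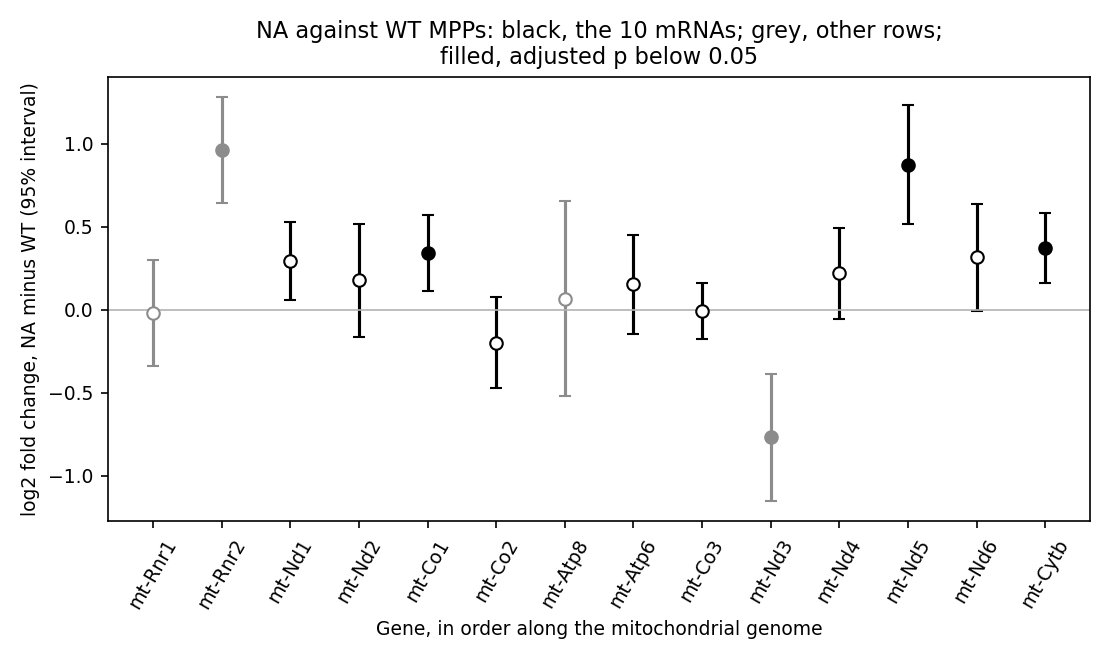
Log2 fold change, NA minus WT, with the 95% interval from limma (vertical axis) for the 10 messenger RNAs (black) and 4 other rows of the mitochondrial genome (grey), in their order along that genome (horizontal axis). Filled points passed an adjusted p of 0.05: mt-Nd5, mt-Cytb and mt-Co1 among the messenger RNAs, mt-Rnr2 above 0 and mt-Nd3 below it.

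Libraries of the same genotype also differed. NA3 was the lowest NA library for all 10 members. Against the median of the other 3 NA libraries its log2 values were lower by 0.515 at the median member, from -0.85 for mt-Nd5 and -0.76 for mt-Nd2 and mt-Nd6 to -0.063 for mt-Co3. The same quantity was 0.0055 over all nuclear genes and -0.21 over the 628 nuclear genes whose GC content lay within the range of the members. Without NA3, the NA and WT values did not overlap for mt-Nd1, mt-Nd4, mt-Nd5, mt-Nd6, mt-Cytb and mt-Co1, and 7 members were called higher. Over all genes tested without NA3, 15.4% were higher without overlap and 10.2% were called higher. The 7 members were those 6 and mt-Nd2 (log2 fold change 0.36, adjusted p = 0.0443, limma). NA3 was singled out because its values of these same members were low, so the counts without it are a description. Among the WT libraries, WT2 was the highest for 8 members and WT3 the lowest for 7. The coefficient of variation in NA MPPs ranged from 2.50% for mt-Co3 to 25.8% for mt-Nd5, and without NA3 from 0.906% to 9.79%. In WT MPPs it ranged from 0.821% for mt-Co1 to 18.7% for mt-Atp6. It was larger in NA than in WT MPPs for every member except mt-Co3 and mt-Atp6. This rested on NA3, without which it was larger in NA only for mt-Co1 (3.84%) and smaller for the other 9 members, as for mt-Nd5 (7.33% against 14.6%).

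The members varied together across libraries. All 45 pairs of members had a positive Pearson r of log2 values over the 8 libraries, with a median of 0.762, the highest for mt-Nd5 with mt-Cytb (0.985) and the lowest for mt-Nd5 with mt-Co2 (0.119). The libraries share their scaling factors and the contrast between groups, so these values are a description. By the same measure, the nuclear genes most like the mean log2 value of the members were Yy2 (r = 0.986), Zfp959 (0.982), Apoo (0.981), Ift80 (0.970) and Uso1 (0.969), out of 11436 genes over 8 libraries. None of the 5 was called between NA and WT (adjusted p from 0.119 to 0.243, limma). Yy2, the closest, was at 33.6 in NA3 and at 72.0 to 91.2 in the other NA libraries.

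Levels of the members were compared with each other per kilobase of gene length. mt-Co1 had the highest level, 107543 ± 17604 normalised counts per kilobase in NA and 83903 ± 689 in WT (SD, n = 4), followed by mt-Co3, mt-Co2, mt-Cytb, mt-Nd1, mt-Nd4, mt-Nd2, mt-Nd6, mt-Atp6 and mt-Nd5 in both groups. mt-Nd5 was lowest, at 5302 ± 1370 per kilobase in NA and 2826 ± 412 in WT (SD, n = 4). The ratio of the highest to the lowest member lay between 17.8 and 36.1 in the 8 libraries. In WT MPPs neighbours in this order overlapped for mt-Co3 and mt-Co2, mt-Cytb and mt-Nd1, mt-Nd1 and mt-Nd4, and mt-Nd6 and mt-Atp6. In NA MPPs mt-Co2 with mt-Cytb, mt-Nd2 with mt-Nd6 and mt-Atp6 with mt-Nd5 overlapped as well, whereas mt-Co3 and mt-Co2 did not. Within libraries the order of neighbours was the same in all 4 libraries of each group, except for mt-Nd6 and mt-Atp6 in WT MPPs (3 of 4).

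Each member was also expressed as a share of the sum of the 10, a quantity that does not depend on how libraries were scaled to each other. For mt-Nd5, mt-Cytb and mt-Co2 these shares did not overlap between the groups. mt-Nd5 was 2.42% ± 0.335 of the summed members in NA and 1.54% ± 0.140 in WT (SD, n = 4). mt-Cytb was 11.4% ± 0.390 in NA and 10.3% ± 0.251 in WT (SD, n = 4). For both, every NA library was above every WT library. mt-Co2 was at 8.91%, 9.68%, 8.44% and 8.18% in NA1 to NA4 and at 12.4%, 12.5%, 10.5% and 11.9% in WT1 to WT4, so every NA library was below every WT library. After each gene was divided by the member sum, 18.8% of all genes tested did not overlap, 4.48% higher and 14.3% lower in NA. The shares add to 100% by construction, so they are not independent of each other.

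**Figure D4:**
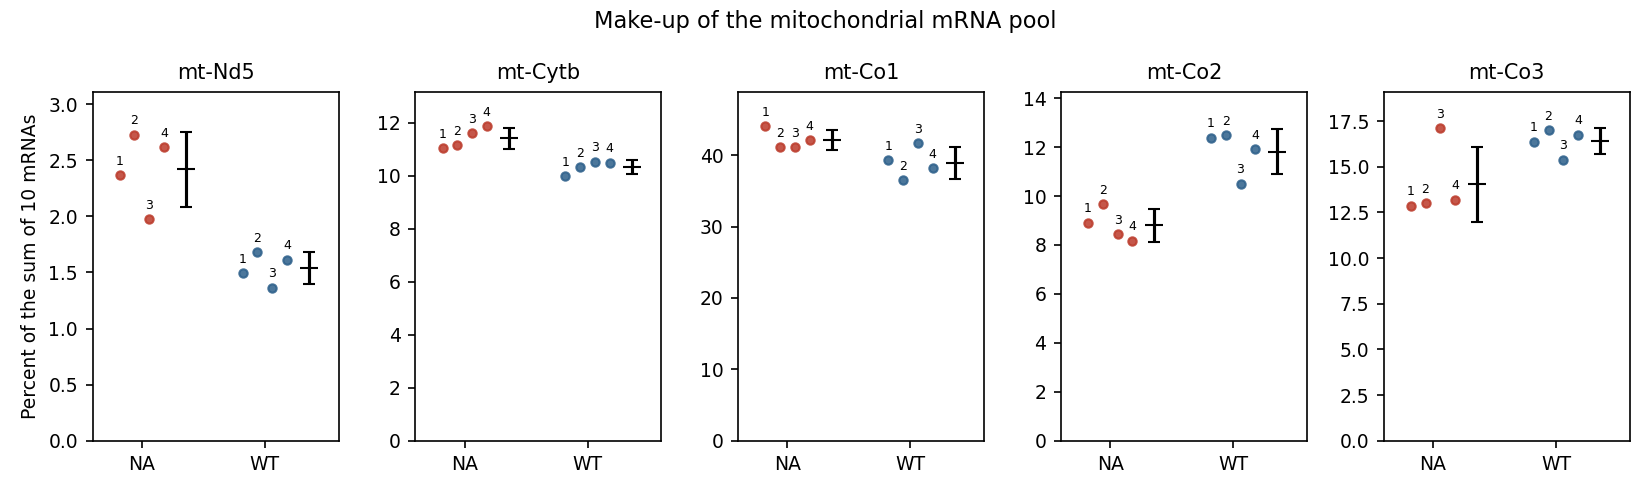
Percent of the sum of the 10 messenger RNAs (vertical axes, from 0, a scale per panel) held by mt-Nd5, mt-Cytb, mt-Co1, mt-Co2 and mt-Co3 in NA (red) and WT (blue) libraries, numbered 1 to 4, with mean and SD in black. The groups are apart for mt-Nd5, mt-Cytb and mt-Co2, and for mt-Co3 NA3 stands at 17.1%, at the height of the WT libraries.

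mt-Co1 was 42.1% ± 1.37 of the pool in NA and 38.9% ± 2.19 in WT (SD, n = 4), with overlap. mt-Co3 was at 12.9%, 13.0% and 13.2% in NA1, NA2 and NA4 but at 17.1% in NA3, above the 15.4% to 17.0% of the WT libraries. mt-Nd4 held 8.78% ± 0.718 in NA and 8.80% ± 0.0284 in WT (SD, n = 4). Within complex IV, the log2 ratio of mt-Co2 to mt-Co1 was -2.26 ± 0.12 in NA and -1.72 ± 0.19 in WT (SD, n = 4), without overlap. That of mt-Co3 to mt-Co1 was -1.59 ± 0.22 and -1.25 ± 0.14 (SD, n = 4), with overlap. These ratios to mt-Co1 were not planned. The log2 ratio of the 4 heavy-strand complex I members to the complex IV members was -1.60 ± 0.13 and -1.72 ± 0.075 (SD, n = 4), with overlap.

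mt-Nd6, the member on the opposite strand, was set against other members. The library kit does not mark strand, so these values are ratios between rows and do not measure the 2 strands separately. The log2 ratio of mt-Nd6 to the sum of the other 9 members was -6.61 ± 0.18 in NA and -6.70 ± 0.13 in WT (SD, n = 4), and the groups overlapped. Against its facing neighbour mt-Nd5 alone, the log2 ratio was -1.24 ± 0.042 in NA and -0.68 ± 0.20 in WT (SD, n = 4), without overlap. The ratio to mt-Nd5 alone was not planned.

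Of the remaining rows of the mitochondrial genome with a test, mt-Rnr2 rose and mt-Nd3 fell. mt-Rnr2, the large ribosomal RNA, was at 4700, 6977, 4649 and 7115 in NA1 to NA4 and at 2321, 3403, 3239 and 2940 in WT1 to WT4. The groups did not overlap, and the log2 fold change was 0.96 ± 0.15 (SE; adjusted p = 0.00068, limma). mt-Rnr1, the small ribosomal RNA, was at 1206 ± 326 in NA and 1187 ± 45.2 in WT (SD, n = 4; adjusted p = 0.952, limma). mt-Nd3, a short complex I gene, fell by 0.77 on the log2 scale (SE 0.18, adjusted p = 0.00954, limma), from 1391 ± 311 in WT to 821 ± 222 in NA (SD, n = 4), with overlap between NA2 and WT3. Without NA4 and WT4 the fall of mt-Nd3 did not pass (-0.76, adjusted p = 0.0691). mt-Atp8 was at 87.7 ± 30.3 and 83.6 ± 25.1 in NA and WT (SD, n = 4; adjusted p = 0.891, limma), and mt-Nd4l was listed at 0 in all libraries.

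Log2 fold changes moved with gene length and base composition among nuclear genes. Among the members they were compared with gene length only, and no relation with GC content was computed. Over the 10 members, the log2 fold change had a Pearson r of 0.718 and a Spearman rho of 0.612 with gene length, and 0.453 and 0.467 without mt-Nd5, across genes of the same libraries. Among nuclear genes the median log2 fold change was -0.18 where the longest transcript was under 1000 bases and 0.044 from 4000 bases up. The members have between 34.1% and 39.9% GC. The 628 nuclear genes in that range had a median log2 fold change of 0.17, with 17.7% called higher and 3.18% lower. With a GC trend removed in each library, mt-Nd5 was still called (log2 fold change 0.68, adjusted p = 0.00448, limma). Under that fit mt-Cytb (0.20, adjusted p = 0.0976) and mt-Co1 (0.18, adjusted p = 0.204) were not called, and mt-Co2 was called lower (-0.38, adjusted p = 0.0354, limma). With GC and length trends both removed, mt-Nd5 (0.68, adjusted p = 0.00406, limma) and mt-Cytb (0.27, adjusted p = 0.0275) were called higher. mt-Co1 (0.20, adjusted p = 0.125) and mt-Co2 (-0.25, adjusted p = 0.142, limma) were then not called. The part of base composition and length in the differences between groups was not tested.

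**Figure D5:**
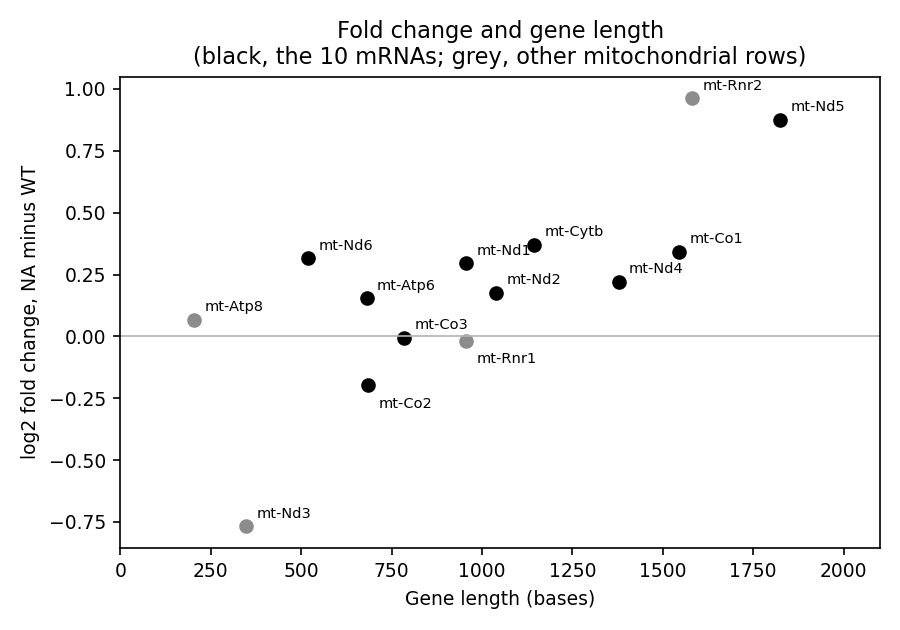
Log2 fold change, NA minus WT (vertical axis), against gene length in bases (horizontal axis) for the 10 messenger RNAs (black) and mt-Atp8, mt-Nd3, mt-Rnr1 and mt-Rnr2 (grey). The longest member, mt-Nd5 at 1824 bases, is the highest of the black points at 0.88, and mt-Co2 at 684 bases is the lowest at -0.20.

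Nuclear genes of mitochondrial function were read from 8 lists, of which 138 of 143 genes were tested. In all, 2 were higher and 16 lower in NA MPPs (1.45% and 11.6%, against 10.1% and 7.87% of all genes), with a median log2 fold change of -0.15. Without NA4 and WT4 the counts were 1 higher (Ndufa4) and 3 lower (Atp5e, Atp5g2 and Hsd17b10). The share of all genes called lower was then 1.25%, and 3.26% were higher. The count of lower genes was also 10 without NA2 or WT3, 7 without WT1 or WT4 and 6 without NA4, and of all genes 5.68%, 5.72%, 5.42%, 4.08% and 3.93% were lower without NA2, WT3, WT1, WT4 and NA4. The list counts thus dropped as the calls over all genes did. Of all nuclear genes with a longest transcript under 1000 bases, 2.10% were higher and 13.8% lower, with a median log2 fold change of -0.18. With the length trend removed 2 list genes were higher and 12 lower, where 1088 and 877 of all 11167 genes were. With GC and length trends removed 5 list genes were higher and 18 lower, where 1043 and 848 of all genes were. The part of gene length in the list counts was not tested. Of 36 nuclear complex I subunits none was higher and 6 were lower, with a median of -0.16 (0 and 11 at an unadjusted p below 0.05, limma, where 16.9% and 15.6% of all genes were higher and lower). Ndufb4 fell by 0.64, Ndufs8 by 0.55 and Ndufs3 by 0.42 on the log2 scale (adjusted p = 0.0244, 0.0129 and 0.0125, limma), all without overlap. Of 9 complex III subunits 1 was lower, Cyc1, which encodes cytochrome c1 (-0.54, adjusted p = 0.0148). Of 11 complex IV subunits Cox7b was lower (-0.31, adjusted p = 0.0438), and Ndufa4, a subunit first assigned to complex I, was higher at 1224 ± 112 against 870 ± 63.4 (SD, n = 4; log2 fold change 0.49, adjusted p = 0.00251, limma). Of 15 ATP synthase subunits none was higher and 4 were lower (0 and 5 at an unadjusted p below 0.05, limma). The fall was largest for Atp5e, at 181 ± 23.8 against 309 ± 27.5 (SD, n = 4; -0.77, adjusted p = 0.00145, limma), with Atp5g2 (-0.56) and Atp5g1 (-0.43).

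Of 20 genes of mitochondrial DNA transcription and maintenance none was called in either direction, with 2 higher and 0 lower at an unadjusted p below 0.05 (limma). Polrmt, the mitochondrial RNA polymerase, was at 97.0 ± 13.7 in NA and 122 ± 13.4 in WT (SD, n = 4; log2 fold change -0.33, adjusted p = 0.199, limma). Tfam, which packages mitochondrial DNA and starts its transcription, was at 592 ± 78.3 and 489 ± 83.9 (SD, n = 4; 0.28, adjusted p = 0.163, limma). Of 24 genes of mitochondrial RNA processing and stability 1 was higher and 4 were lower, with a median log2 fold change of -0.32. At an unadjusted p below 0.05 (limma) 1 was higher and 9 were lower, where 16.9% and 15.6% of all genes were higher and lower. Trmt10c, a subunit of the enzyme that cuts transfer RNAs out of the long transcripts at their 5′ end, was at 413 ± 92.9 in NA and 240 ± 29.2 in WT (SD, n = 4), without overlap (log2 fold change 0.76, adjusted p = 0.00659, limma). Hsd17b10, its partner in that enzyme, was at 433 ± 23.7 and 649 ± 26.7 (SD, n = 4), also without overlap, and fell by 0.59 on the log2 scale (adjusted p = 0.000701, limma). Tbrg4 and Fastkd2, RNA-binding proteins of the FASTK family that act on mitochondrial RNA, fell by 0.75 each (adjusted p = 0.0216 and 0.0409, limma). Without NA4 and WT4 Hsd17b10 was still called (adjusted p = 0.0246, limma), and Trmt10c, Tbrg4 and Fastkd2 were not (0.0757, 0.146 and 0.121). Lrpprc, which stabilises the messenger RNAs with Slirp, had a log2 fold change of -0.049 (adjusted p = 0.838), and Slirp one of -0.39 (adjusted p = 0.102, limma). None of 11 regulators of mitochondrial biogenesis and none of 12 genes used as a measure of mitochondrial content was called, with 3 and 4 lower and 0 higher at an unadjusted p below 0.05 (limma), beside 15.6% and 16.9% of all genes.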

How the data were processed

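RNA-seq libraries of sorted MPPs, 4 NA and 4 WT, were read from a table of the whole series. Per the labels and the study's methods, cDNA was amplified, tagmented with Nextera XT and processed with bcl2fastq, RSEM and DESeq2 on build mm10. Versions, annotation and strand use are not given in the sources used here. The values, as deposited by the authors, are a signal on a normalised scale: RSEM estimates over a size factor, with 1 factor for each library. From 98.3% to 98.7% of low values were whole multiples of 1 step per library (tolerance 0.01 reads), and the step gave the depth. Intervals from depth alone are not given, because amplified reads are not independent molecules.

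Groups came from the sample titles. On the log2(value + 1) scale, limma (version 3.58.1, R 4.3.3) with a mean-variance trend was run on genes that reached 10 normalised counts in 4 or more of the 8 libraries, two-sided, NA against WT, with no covariate and Benjamini-Hochberg adjustment at 0.05. A fold change is on the log2(value + 1) scale. Shares, ratios and correlations carry no p. The members and lists were chosen with earlier results of these data known. Genes named beside the members were the other mitochondrial rows, the 5 closest genes by likeness, and up to 3 called genes per direction of each list, with Polrmt, Tfam, Lrpprc and Slirp in any case. Names, coordinates, lengths and sequence came from GENCODE M21, in which 32916 of 37980 rows were found. None of 6 nuclear copies of mitochondrial genes had a row, so their reads cannot be told apart from those of the members. Alternatives covered filters, pseudocounts, scaling, variance models, depth, GC, length, a replicate block and left-out libraries. The summed level of the erythroid list is not reported here.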

Additional observations from a re-analysis of the deposited data

Results flagged for a closer look

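Each group of 4 values was checked for a library far from the rest by Dixon's ratio of gap to range. Of 56 groups checked, 3 were past the 95% value, where chance gives about 2.8, and all 3 were NA3. The level of mt-Nd1 in NA3 was 22561 normalised counts, and the other NA libraries were between 30472 and 31880. The share of the library held by the 10 messenger RNAs was 6.77% in NA3, against 9.06% to 9.27% in the other NA libraries. The share of mt-Co3 in the summed members was 17.1% in NA3, against 12.9% to 13.2%.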

How the results depend on the processing

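The number of members called higher, 3 in the reported fit, was 1 with no filter on low values, with no variance trend, with the GC trend removed (also with the replicate block) and without the fourth libraries, where mt-Nd5 was the one called. It was 6 with array weights and without NA3 and the fourth libraries, and from 1 to 7 when a library was left out (1 without NA1, NA2, NA4 or WT3, and 7 without NA3). With the GC trend removed 1 member was lower, mt-Co2. Of the nuclear list genes, 8 were higher with array weights, 5 with GC and length trends removed and 1 without the fourth libraries, and from 2 to 2 with a library left out. The number lower, 16 as reported, was 27 with total-count scaling, 6 with no variance trend, 53 with array weights, 5 with the replicate block and depth class, 3 without the fourth libraries with or without NA3, and from 6 to 21 with a library left out.

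The log2 ratio of mt-Nd6 to the sum of the other members differed by 0.091 between groups, NA minus WT. With only mt-Nd5 and mt-Cytb as the denominator the difference was -0.13. Log2 fold changes that turned sign were small: with the GC trend removed, with or without the replicate block, mt-Nd2 was at -0.034, mt-Atp6 at -0.053 and mt-Atp8 at -0.18. mt-Atp8 was at -7.0e-05 with total-count scaling. Without NA3 and the fourth libraries mt-Co2 was at 0.022, mt-Co3 at 0.033 and mt-Rnr1 at 0.0053. mt-Co3 was at 0.16 and mt-Rnr1 at 0.14 with the length trend removed, mt-Co3 at 0.0090 without the fourth libraries, and mt-Rnr1 at 0.18 with array weights, 0.039 with depth class and 0.024 with that and the replicate block. With a library left out, mt-Co3 ranged from -0.065 to 0.047, mt-Rnr1 from -0.14 to 0.12 and mt-Atp8 from -0.16 to 0.20. The causes were not tested.

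The 2 length alternatives were chosen after seeing the data, and with the length trend removed 4 members were called higher. Over all genes 2053 were called, 519 without the fourth libraries, 392 without these and NA3, 1130 without NA4, 1271 without WT4, 4649 with array weights and 1229 with the replicate block and depth class. Total-count scaling moved the share of calls that were higher from 56.1% to 41.3%, and the median of all genes to -0.079 (log2). The r of deviations between NA and WT libraries of the same number was 0.0874, 0.0271, 0.0131 and 0.158. Between libraries of different numbers it ranged from -0.0943 to 0.101. Whether the numbers pair the libraries is not given in the sources used here, and these values do not settle it. A replicate block gave 2004 calls and 4 members higher, mt-Nd1 added. The planned count test was not run, since whole reads could not be recovered for all genes, and shares with nuclear copies were not run, since these have no rows. The lowest value of any member in a library was 2632 normalised counts. Amplified reads are not independent molecules, so this number does not bound the sampling error. The precision of the members was taken from their spread between libraries.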

Other observations

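Of the 22 transfer RNA rows, 20 stayed below 10 normalised counts in every library. The 2 others were mt-Ts1 and mt-Te, named after their values were seen. mt-Ts1 was at 124, 118, 86.8 and 66.1 in NA1 to NA4 and at 138, 74.7, 84.3 and 83.5 in WT1 to WT4. mt-Te was at 20.5, 17.9, 8.31 and 4.72 in NA1 to NA4 and at 25.7, 5.66, 6.83 and 6.21 in WT1 to WT4. Both were highest in WT1, and the groups overlapped for both.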
